A study of Mus musculus with 63 samples.

Results

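PDGFRB cells sorted from mouse kidney after 2 days of unilateral ureteric obstruction (UUO-2) were compared with PDGFRB cells from sham-operated kidney. The comparison uses 8 of the 63 small RNA libraries of the study, 4 sham and 4 UUO-2, chosen by the cell type and the condition that their labels give and not by any measured value. All mice were male C57BL/6 young adults. In UUO-2 the ureter was tied off and the kidney was taken at day 2, while sham mice kept an open ureter. The kidneys were digested and the cells were sorted as CD45- CD31- PDGFR-β+, a gate that can hold fibroblasts, pericytes and other mural cells together. Each library came from a different mouse, and the 4 animals sequenced in a group were those with expression of the tubular injury gene Havcr1 nearest to the group mean, so that the spread between libraries may be narrower than that between mice. In these bulk libraries a change in the makeup of the sorted cells and a change in the RNA of each cell cannot be told apart.

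MicroRNAs (miRNAs) are short RNAs that are cut from a hairpin precursor, which can give a mature strand from its 5′ arm and from its 3′ arm, named 5p and 3p. A mature miRNA guides the silencing complex to messenger RNAs, mainly through its seed, bases 2 to 8, and lowers their stability or translation. PDGFR-β+ cells line the peritubular capillaries and fill the kidney interstitium, and they are the main source of the matrix-producing myofibroblasts of renal fibrosis.

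Total counts ranged from 2732682 to 7932031 in the sham libraries and from 3279418 to 6701056 in the UUO-2 libraries, and the 10 most abundant loci of a library took 80.0% to 83.6% of it. Levels are given in CPM, the usual scaling of counts to a common library size (here the library size after TMM within the PDGFRB libraries, unless another scale is named). A count of 3 was worth 0.421 to 1.11 CPM. Replicate libraries differed from each other far beyond counting error, with a chi-square per degree of freedom of 23.5 to 1391 over 12 pairs. The sort label was checked with miRNAs of stromal and mural cells. Scaled over all 63 libraries, the summed level of miR-199a-5p, miR-199a-3p, miR-214-3p, miR-143-3p and miR-145a-5p had a median of 380325 CPM in sham PDGFRB libraries, against 14693 in endothelial cells (ECs), 4054 in F4/80hi macrophages (Macs) and 2450 in proximal tubular (PT) cells. At UUO-2 the medians were 252392, 19349, 4800 and 7469 CPM. Nearly all of the PDGFRB sum was miR-143-3p, with a sham mean of 365867 CPM, so that the check rests on it. Among UUO-2 libraries replicate 3 stood apart. Its miR-143-3p level of 321194 CPM lay within the sham range and above the 168690 to 216978 CPM of the other UUO-2 libraries, and it had the lowest UUO-2 level at 13 of the 27 loci that rose.

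The sequences below belong to the miRNAs on which the comparison turns, with the seed in capitals. They are RefSeq mature sequences on GRCm38.p6, matched by name and position for 28 of the 30 loci that changed. They are shown to set apart the miRNAs that share a seed, and could act on the same messenger RNAs, from those that do not.
miR-21a-5p: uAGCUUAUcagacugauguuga
miR-21a-3p: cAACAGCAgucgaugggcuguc
miR-155-5p: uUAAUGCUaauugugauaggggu
miR-146b-5p: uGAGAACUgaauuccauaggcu
miR-132-3p: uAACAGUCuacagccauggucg
miR-212-3p: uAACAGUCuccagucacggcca
miR-142a-5p: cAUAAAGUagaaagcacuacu
miR-142a-3p: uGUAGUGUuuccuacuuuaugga
miR-199a-5p: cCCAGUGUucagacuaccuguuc
miR-214-3p: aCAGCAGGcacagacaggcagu
miR-125b-5p: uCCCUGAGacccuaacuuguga
miR-203-3p: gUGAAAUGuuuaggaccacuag
miR-203b-5p: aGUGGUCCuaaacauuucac
The seed AACAGUC is shared by miR-132-3p and miR-212-3p, and both miR-125b-5p loci carry CCCUGAG. Every other changed locus with a sequence had a seed of its own among the changed loci with a sequence. The changed loci without a sequence were miR-199b-5p and miR-874-3p. Whether miR-199b-5p shares the seed of its paralogue miR-199a-5p was therefore not compared.

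In the main fit the early response of PDGFRB cells to obstruction was mainly an increase of a small number of miRNAs. Of 477 loci tested, 30 (6.29%) passed an adjusted p of 0.05 (edgeR's quasi-likelihood test with Benjamini-Hochberg adjustment) and a fold change of 1.5, of which 27 (5.66%) were higher and 3 (0.629%) were lower at UUO-2. They carry 29 mature names, since miR-125b-5p is counted at 2 loci. The loci that rose had a median sham level of 17.7 CPM, against 11.1 CPM for the 447 loci not called, and their highest sham mean was that of miR-21a-5p at 1366 CPM. Together they took 0.224% to 0.342% of the counts of a sham library and 1.01% to 1.77% of a UUO-2 library, and without miR-21a-5p 0.128% to 0.190% and 0.325% to 0.463%. The median log2 change over all tested loci was 0.15, with 293 loci above 0 and 181 below 0. Unadjusted, 107 loci (22.4%) had a p under 0.05. In 65 of the tested loci (13.6%) the UUO-2 and sham libraries did not overlap, which held for 23 of the 27 higher loci (9.64% of all tested loci had every UUO-2 library above sham) and all 3 lower loci (3.98% had every one below). The direction of the calls depended on the scaling and on the libraries fitted. RLE factors, the scaling of DESeq2, gave 23 higher and 7 lower loci (76.7% higher against 90.0%) and moved the median log2 change to 0.05. A fit of the sham and UUO-2 libraries alone gave 28 calls, 67.9% of them higher, and a median log2 change of -0.0018. DESeq2 gave 44 calls, 70.5% of them higher. No called locus changed sign under any alternative. Leaving out 1 library left 19 to 42 calls, the fewest without sham replicate 4 and the most without UUO-2 replicate 3, and 18 of the 30 calls held without each of the 8 libraries. At the edge of the threshold, miR-148b-5p (adjusted p = 0.0469) was inside it, and miR-30a-3p (log2 change -0.54, adjusted p = 0.0504) and miR-128-3p on chromosome 1 (0.89, adjusted p = 0.0519) were outside it.

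**Figure D1:**
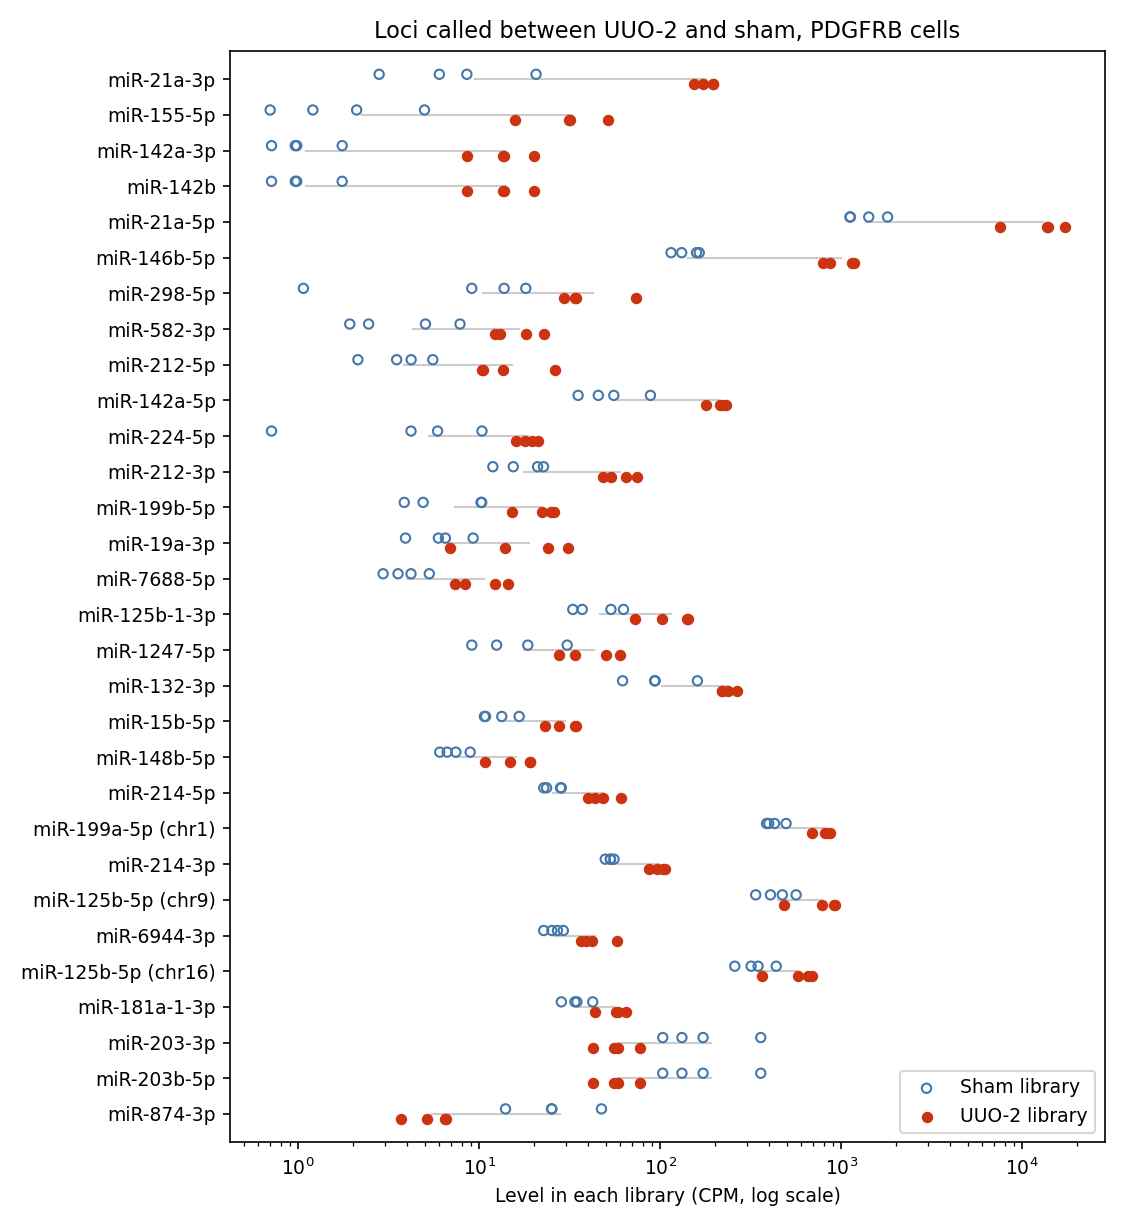
Level in CPM (log scale) of each of the 30 loci called between UUO-2 and sham, in 4 sham libraries (open circles) and 4 UUO-2 libraries (filled circles), ordered by log2 fold change, with a line joining the group means. The groups are farthest apart at miR-21a-3p and miR-155-5p, and they overlap at miR-19a-3p, miR-1247-5p and both miR-125b-5p loci.

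**Figure D2:**
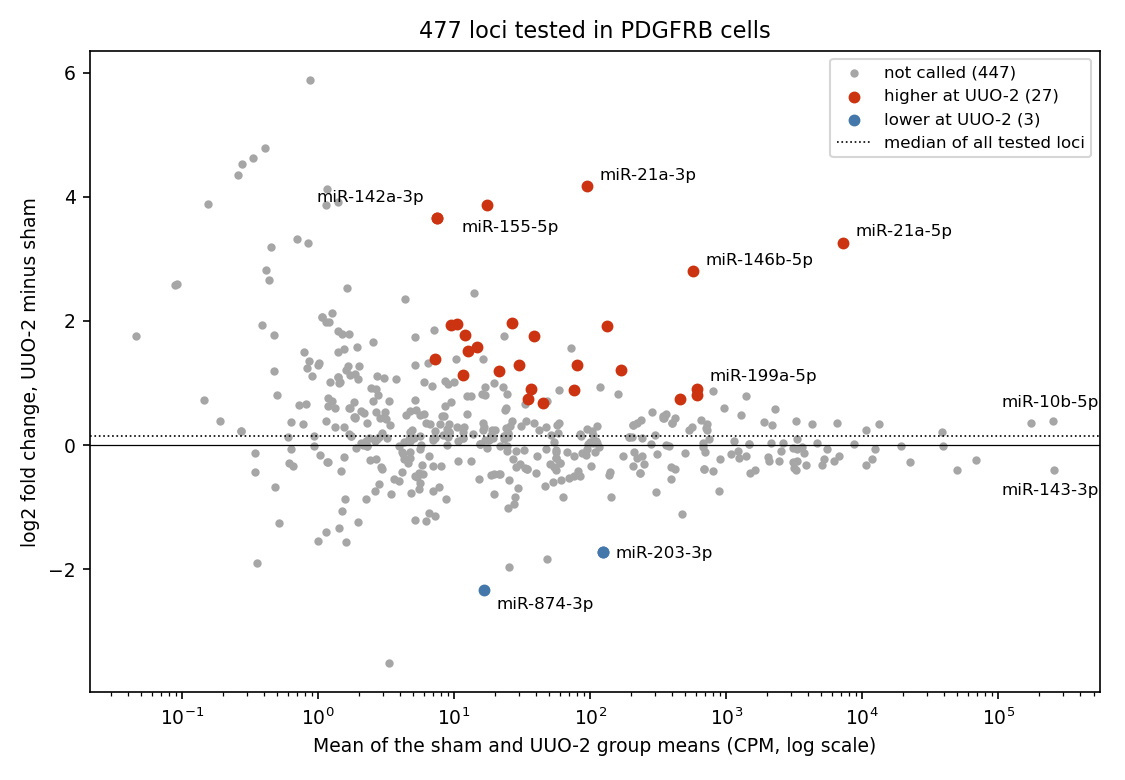
Log2 fold change at UUO-2 against the mean level (CPM, log scale) of 477 tested loci, with 27 higher loci in red, 3 lower loci in blue and the others in grey. The most abundant loci on the right lie near 0, and miR-21a-5p is the called locus farthest to the right.

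Of the 12 tested loci in the list of injury and inflammation miRNAs, 7 rose and none fell, among them the pair with the largest log2 changes of all called loci, miR-21a-3p and miR-155-5p. The median log2 change of that list was 1.85, against 0.15 over all tested loci. All lists used here were chosen with earlier results of these data known. Their medians and counts of calls are therefore descriptions and no independent support. In the sham libraries miR-21a-5p, a miRNA known for its induction in injured and fibrotic tissue, measured 1804, 1117, 1420 and 1124 CPM, and in the UUO-2 libraries 13701, 13935, 7553 and 17236 CPM. Every UUO-2 library was at least several times above the highest sham library, and miR-21a-5p moved from rank 49 to rank 11 among all loci by mean level. Its log2 change was 3.26 ± 0.23 (SE, adjusted p = 1.53e-07). The other arm of the same hairpin, miR-21a-3p, rose from 20.6, 6.03, 8.55 and 2.80 CPM to 195, 196.2, 153 and 173 CPM. Its log2 change of 4.18 ± 0.42 (SE, adjusted p = 8.12e-06) was the largest among the called loci. Both arms lie in the Mir21a hairpin on the minus strand of GRCm38, within an exon of Vmp1, a gene of autophagy, at chr11:86584067-86584158. The RefSeq hairpin is printed here with the 5′ arm and then the 3′ arm in capitals, because both arms rose although their levels are far apart.
Mir21a: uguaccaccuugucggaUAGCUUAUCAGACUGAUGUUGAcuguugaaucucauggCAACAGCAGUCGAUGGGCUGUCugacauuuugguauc

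Second in size was miR-155-5p, a product of the Bic host transcript that is induced in activated immune and stromal cells. It was near the counting limit in sham, at 2.10, 1.21, 4.99 and 0.700 CPM (2 to 15 reads a library), and measured 31.9, 31.3, 15.8 and 51.2 CPM at UUO-2. The groups did not overlap and the log2 change was 3.87 ± 0.49 (SE, adjusted p = 9.44e-05). The locus lies at chr16:84714143-84714165 in an exon of Mir155hg. Its other arm, miR-155-3p, had no read in any sham library and 8, 0, 0 and 11 reads at UUO-2, and did not pass the test (adjusted p = 0.0905).

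The NF-κB target miR-146b-5p, which represses Toll-like receptor signalling adaptors, rose from 164, 159, 131 and 115 CPM to 864, 1172, 789 and 1148 CPM. All UUO-2 libraries were well above all sham libraries, with a log2 change of 2.80 ± 0.22 (SE, adjusted p = 3.96e-07). It lies at chr19:46342790-46342811 in an intron of Mfsd13a. Its relative with the same seed, miR-146a-5p, measured 205 ± 61.1 CPM in sham and 270 ± 33.5 CPM at UUO-2 (SD, n = 4), with a log2 change of 0.40 ± 0.19 (SE, adjusted p = 0.236), and passed only without sham replicate 2 (0.60, adjusted p = 0.0491).

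The CREB-responsive miR-212 and miR-132 hairpins lie on the plus strand of chromosome 11 at 75173403-75173744, in an intron of 1700016P03Rik, and 3 of their 4 arms rose. The most abundant, miR-132-3p, measured 93.1, 161, 62.0 and 93.8 CPM in sham and 220.7, 265, 238 and 220.2 CPM at UUO-2. The UUO-2 libraries lay close together above a wider sham group (log2 change 1.20 ± 0.24 SE, adjusted p = 0.00472). With the same seed, miR-212-3p rose from 15.4, 22.7, 21.0 and 11.9 CPM to 53.5, 64.4, 74.1 and 48.2 CPM (1.76 ± 0.29 SE, adjusted p = 0.00103). The opposite arm miR-212-5p also rose (1.93 ± 0.35 SE, adjusted p = 0.00207), with the highest UUO-2 library at 26.3 CPM and the others at 10.4 to 13.5 CPM. The fourth arm, miR-132-5p, went from 5.84 ± 4.77 to 14.8 ± 4.49 CPM (SD, n = 4) and did not pass (1.39 ± 0.47 SE, adjusted p = 0.0905). It passed without sham replicate 3, at 2.08 with adjusted p = 0.00471, and also with no filter, with a replicate block and by the likelihood ratio test. Of the remaining list members, miR-31-5p measured 22.3 CPM in sham and 24.3 CPM at UUO-2.

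Of the markers of Macs and leukocytes, only the arms of the miR-142a hairpin were called higher at UUO-2. In the list of 6 such miRNAs, 5 were tested and 2 rose, miR-142a-5p and miR-142a-3p, from a hairpin known for its blood-cell expression. The level of miR-142a-5p was 35.2, 55.4, 88.3 and 45.5 CPM in sham and 220, 230, 213 and 179 CPM at UUO-2. The groups were apart, with a log2 change of 1.91 ± 0.31 (SE, adjusted p = 0.00085). For miR-142a-3p, which had 2 to 7 reads in a sham library, the log2 change was 3.65 ± 0.47 (SE, adjusted p = 9.44e-05), and the miR-142b locus on the opposite strand of the same bases carried the same reads in these libraries, so that it is no separate observation. The RefSeq hairpin at chr11:87756864-87756927, in an intron of Mir142hg, is shown with both arms in capitals because this hairpin is the defining blood-cell marker of the list.
Mir142: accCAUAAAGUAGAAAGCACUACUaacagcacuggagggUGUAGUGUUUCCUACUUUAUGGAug
The myeloid miR-223-3p was at 2.52, 2.17, 39.9 and 2.80 CPM in sham and 16.9, 19.3, 30.9 and 21.1 CPM at UUO-2 and did not pass (0.94, adjusted p = 0.522). Sham replicate 3 was the high one, and it was also the sham library with the most miR-142a-5p. Without it the log2 change of miR-223-3p was 3.12 and passed (adjusted p = 0.00376). The macrophage pair miR-511-5p and miR-511-3p stayed at 1.07 to 7.95 CPM and 3.92 to 6.03 CPM in sham and at 2.51 to 10.1 CPM and 2.97 to 6.54 CPM at UUO-2, and miR-223-5p was at 0 in 3 sham libraries and 1 UUO-2 library.

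Summed over the whole marker list, the level ranged from 46.6 to 134 CPM in sham and from 228 to 275 CPM at UUO-2, without overlap. Most of this sum was miR-142a-5p, with means of 56.1 and 211 CPM, so that it mainly repeats the result of that miRNA. Scaled over all 63 libraries, the median sum was 0.200% of that of Macs in sham and 1.12% at UUO-2. It went from 80.7 to 315 CPM in PDGFRB cells, while that of Macs went from 40415 to 28231 CPM. The median sum also went from 33.0 to 93.5 CPM in ECs and from 82.0 to 160 CPM in PT cells. By the quasi-likelihood test miR-142a-5p rose in ECs (1.30, adjusted p = 0.00273) and in PT cells (1.04, adjusted p = 0.00641). Shares of the Mac level were also taken for single miRNAs. At UUO-2 the mean of miR-21a-5p in PDGFRB cells was 27.0% of its mean in Macs, that of miR-21a-3p 14.1%, that of miR-155-5p 52.8% and that of miR-146b-5p 56.1%. Among the markers it was 1.06% for miR-142a-5p, 1.64% for miR-142a-3p and 1.35% for miR-223-3p. The markers miR-511-5p and miR-511-3p, which were not called, stood at 13.2% and 10.6%, near the share of miR-21a-3p (9.59% and 9.67% in sham). For miR-132-3p the PDGFRB mean was 809% of the Mac mean, and for miR-199a-5p on chromosome 1 it was 5525%. The part of blood cells in the other changes was not tested beyond these shares.

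Stromal fibroblast and pericyte miRNAs rose in part. Of 12 tested loci of the list, 4 rose and none fell. All 12 had a positive log2 change, as did 293 of all 477 tested loci. The median was 0.73, against 0.15 over all tested loci, in a list also chosen with earlier results of these data known. In sham miR-199a-5p on chromosome 1 measured 387, 496, 428.5 and 398 CPM and at UUO-2 830, 868, 690 and 812 CPM. Every UUO-2 library exceeded every sham library by a narrow spread in both groups, and the log2 change was 0.90 ± 0.13 (SE, adjusted p = 0.000208). In the same transcript, miR-214-3p rose from 53.2, 53.0, 55.6 and 49.7 CPM to 96.5, 106.4, 104 and 86.4 CPM (0.89 ± 0.14 SE, adjusted p = 0.00085) and miR-214-5p from 25.7 ± 2.98 to 48.1 ± 8.85 CPM (SD, n = 4), a log2 change of 0.91 ± 0.17 (SE, adjusted p = 0.00367) that was lost with no filter on low counts (adjusted p = 0.0572). These 3 arms lie on the plus strand of chromosome 1 between 162217844 and 162223459, in an exon of the long noncoding RNA Dnm3os and opposite an intron of Dnm3. The fourth arm of the pair, miR-199a-3p, was the most abundant at 2830 CPM in sham and 3687 CPM at UUO-2 but did not pass (0.38 ± 0.17 SE, adjusted p = 0.180). The paralogous miR-199b-5p on chromosome 2, at 32318485-32318507 opposite an intron of Dnm1, rose from 10.2, 3.86, 10.3 and 4.90 CPM to 22.3, 25.9, 15.3 and 24.8 CPM (1.57 ± 0.31 SE, adjusted p = 0.00407). Its other arm, miR-199b-3p, measured 637 and 803 CPM and did not pass (adjusted p = 0.273). Of the other list members, miR-34c-5p, a p53-responsive miRNA, was at 562 CPM in sham and 747 CPM at UUO-2 (0.41, adjusted p = 0.276). Reads of miR-199a that fit more than 1 locus could have been split between them by the counting, so that single loci of this family are uncertain.

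The miR-99, miR-100 and miR-125 family held 3 called loci of 12 tested, all from miR-125b hairpins, and a median log2 change of 0.27. The star arm miR-125b-1-3p (chr9:41581980-41582001) rose from 62.7, 37.1, 53.4 and 32.9 CPM to 102, 141.9, 72.5 and 140.9 CPM, without overlap (1.29 ± 0.25 SE, adjusted p = 0.00367). The guide miR-125b-5p, which has the same sequence at its 2 loci, rose from 445 ± 96.6 to 776 ± 206 CPM on chromosome 9 (0.80 ± 0.21 SE, adjusted p = 0.0326) and from 340 ± 74.6 to 571 ± 145.8 CPM on chromosome 16 (0.75 ± 0.21 SE, adjusted p = 0.0429; SD, n = 4). These are 1 measurement rather than 2, since their reads cannot be told apart. UUO-2 replicate 3, at 481 and 363.1 CPM, lay within the sham range at both. The calls were lost without each of sham replicates 2, 3 and 4 and UUO-2 replicates 1, 2 and 4, with adjusted p up to 0.107 and 0.138. Relatives with the seed CCCUGAG did not pass: miR-125a-5p was at 9713 and 11481 CPM (0.24, adjusted p = 0.280) and miR-351-5p at 6812 and 5675 CPM (-0.26, adjusted p = 0.542).

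The remaining loci that rose belong to no family of which most members moved. On an intron of the phosphodiesterase gene Pde4d, miR-582-3p (chr13:109324790-109324810) rose from 5.05, 1.93, 7.84 and 2.45 CPM to 12.2, 22.9, 13.1 and 18.2 CPM (1.95 ± 0.38 SE, adjusted p = 0.00367). On an intron of the condensin gene Smc4, miR-15b-5p (chr3:69009775-69009796) rose from 13.3, 16.6, 10.7 and 10.9 CPM to 33.7, 23.1, 27.7 and 34.1 CPM (1.19 ± 0.23 SE, adjusted p = 0.00367). Both were apart in all libraries and held without each library in turn. The other loci with the seed of miR-15b-5p, which is that of a family of cell cycle regulators, were more abundant, at 440 to 4598 CPM against 12.9 CPM in sham, and lay at log2 changes of -0.35 to 0.24, among them miR-16-5p on chromosome 3, the close neighbour of miR-15b, at 2588 CPM in sham and 2652 CPM at UUO-2 (0.04, adjusted p = 0.904).

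Another 8 higher loci had calls that depended on single libraries. They were miR-298-5p (1.97, adjusted p = 0.0326), miR-224-5p (1.77, adjusted p = 0.0409), miR-19a-3p (1.52, adjusted p = 0.0425), miR-7688-5p (1.39, adjusted p = 0.0409), miR-1247-5p (1.29, adjusted p = 0.0328), miR-148b-5p (1.13, adjusted p = 0.0469), miR-6944-3p (0.75, adjusted p = 0.0230) and miR-181a-1-3p (0.68, adjusted p = 0.0429). The first of them, miR-298-5p, measured 18.1, 13.7, 1.07 and 9.10 CPM in sham and 34.1, 33.9, 29.3 and 73.8 CPM at UUO-2, apart but with 1 low sham and 1 high UUO-2 library. The call of miR-298-5p was lost without sham replicate 2, sham replicate 4 or UUO-2 replicate 4 (adjusted p up to 0.103), and that of miR-6944-3p without sham replicates 1 or 4 or UUO-2 replicate 4 (up to 0.0809). The calls of miR-224-5p and miR-7688-5p were lost without sham replicates 1 or 4 or UUO-2 replicates 1 or 4, without UUO-2 replicate 2 for miR-224-5p and without sham replicate 3 for miR-7688-5p (up to 0.110 and 0.124). That of miR-1247-5p was lost without sham replicates 1, 2 or 4 or UUO-2 replicates 2 or 3 (up to 0.100), and that of miR-148b-5p without every library except UUO-2 replicate 1 (up to 0.138). Those of miR-19a-3p and miR-181a-1-3p were lost without sham replicates 2 or 4 or UUO-2 replicates 1, 2 or 4, and also without sham replicate 3 for the first and sham replicate 1 for the second (up to 0.15 and 0.14). In a list of the miR-17 to miR-92a cluster, which drives proliferation, and its paralogous miR-106a to miR-363 and miR-106b to miR-25 clusters, miR-19a-3p was the only one of 17 tested loci that passed. Its seed relative in the same cluster, miR-19b-3p on chromosome 14, went from 81.5 to 156 CPM (0.93 ± 0.34 SE, adjusted p = 0.115) and passed without UUO-2 replicate 3 (adjusted p = 0.0411), with no filter (0.0202) and with a replicate block (0.0119).

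The 3 lower loci are 2 miRNAs. From 25.1, 14.0, 47.4 and 25.2 CPM in sham, miR-874-3p fell to 6.46, 6.56, 5.15 and 3.71 CPM. No library overlapped and the call held without each library (log2 change -2.33 ± 0.45 SE, adjusted p = 0.00367). It lies at chr13:58023135-58023156 in an intron of Klhl3, a gene of the distal nephron. The epithelial miR-203-3p, known from skin differentiation, fell from 173, 131.8, 103 and 359.5 CPM to 55.3, 42.6, 77.3 and 58.6 CPM (-1.71 ± 0.46 SE, adjusted p = 0.0409). The miR-203b-5p locus overlaps it on the opposite strand at chr12:112130927-112130946 and carries the same counts in every library, so that it adds nothing to the first. Both calls were lost without sham replicates 1 or 4 or UUO-2 replicates 1, 2 or 4, with adjusted p up to 0.139 and a log2 change of -1.22 to -1.96. The list of tubular markers, measured beside them, held 20 loci with a summed level of 3715 to 4613 CPM in sham and 2221 to 4271 CPM at UUO-2, with overlap. Of its 12 tested loci none passed and 10 had a negative log2 change, against 181 of all 477 tested loci. In PT cells themselves miR-203-3p measured 401 CPM in sham and 226 CPM at UUO-2, and miR-874-3p 56.4 and 32.1 CPM (scaled over all 63 libraries). Neither fall passed the quasi-likelihood test there (adjusted p = 0.0747 and 0.258). By the same test both fell in Macs, miR-203-3p from 334 to 120 CPM (-1.48, adjusted p = 0.000488) and miR-874-3p from 9.87 to 3.58 CPM (-1.47, adjusted p = 0.0179). In ECs neither passed (-0.34, adjusted p = 0.792, and -1.48, adjusted p = 0.110). The part of tubular RNA in the fall of miR-203-3p and miR-874-3p was not tested. In that list the largest fold difference was that of miR-204-5p, at 645 CPM in sham and 300 CPM at UUO-2 without overlap (-1.11, adjusted p = 0.0722), which passed without sham replicate 3 (-1.30, adjusted p = 0.0356) and under RLE factors (-1.22, adjusted p = 0.0364), DESeq2, the likelihood ratio test, no filter and a fit of the sham and UUO-2 libraries alone. The sorted tubular cells are proximal only, and in sham they did not hold the highest level of miR-204-5p. Scaled over all 63 libraries, its sham mean was 112 CPM in PT cells, 835 CPM in PDGFRB cells and 2796 CPM in ECs. Its PT mean at UUO-2 was 720 CPM. In the same list miR-141-3p had a sham mean of 84.8 CPM in PT cells and 209 CPM in PDGFRB cells, and a PT mean of 457 CPM at UUO-2.

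None of the 10 most abundant loci was called, and their log2 changes lay between -0.41 and 0.38. The mural cell miRNA miR-143-3p measured 269442, 342175, 242431 and 304316 CPM in sham and 170791, 216978, 321194 and 168690 CPM at UUO-2. Except for UUO-2 replicate 3 the UUO-2 libraries were below the sham libraries (-0.40 ± 0.21 SE, adjusted p = 0.268), and without that library the change passed (-0.66, adjusted p = 0.0335). The Hox-embedded miR-10b-5p and miR-10a-5p measured 219668 and 152417 CPM in sham and 286347 and 195870 CPM at UUO-2 (0.38 and 0.36, both adjusted p = 0.268). Together miR-143-3p, miR-10b-5p and miR-10a-5p took 56.8% to 59.8% of a sham library and 57.7% to 65.2% of a UUO-2 library. The groups did not overlap at miR-30a-5p, which was lower at UUO-2 (24518 and 20266 CPM, adjusted p = 0.180), and at miR-181a-5p on chromosome 2, which was higher (11634 and 14695 CPM, adjusted p = 0.174). The other 5 were let-7f-5p on chromosome X (-0.24), miR-27b-3p (-0.41), miR-22-3p (0.22) and miR-26a-5p on chromosomes 10 (-0.01) and 9 (-0.02).

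In 10 further lists no locus passed. The mural cell cluster of miR-143 and miR-145 had 4 tested loci and a median log2 change of 0.01, with miR-145a-5p at 1028 CPM in sham and 1774 CPM at UUO-2 (0.79, adjusted p = 0.1496). The miR-29 family, known repressors of collagen messenger RNAs, had 7 tested loci and a median of 0.12, with miR-29a-3p at 1111 and 1162 CPM. Of let-7, a family of differentiation, 12 loci were tested with a median of -0.25, and 10 of them had a negative value. The medians were 0.53 for miR-221 and miR-222 (4 loci, miR-222-3p 0.50 with adjusted p = 0.115), 0.36 for the Hox cluster miRNAs (12), -0.28 for the miR-23, miR-27 and miR-24 clusters (10) and -0.72 for the hypoxia miRNA miR-210 (2). For the markers of other cells they were 0.35 in ECs (5 loci), -0.32 in tubules (12) and -0.25 in erythroid cells (4). The miR-126a and miR-126b loci overlap on opposite strands and had nearly the same counts (sham means 1465 CPM for miR-126a-5p and 1466 CPM for miR-126b-3p). The miR-486a and miR-486b arms likewise had equal values. These loci are no separate measurements, so the EC and erythroid medians rest on fewer measurements than loci. The summed EC markers, which count the miR-126 reads at both loci, ranged from 3438 to 3802 CPM in sham and from 2590 to 6160 CPM at UUO-2.

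**Figure D3:**
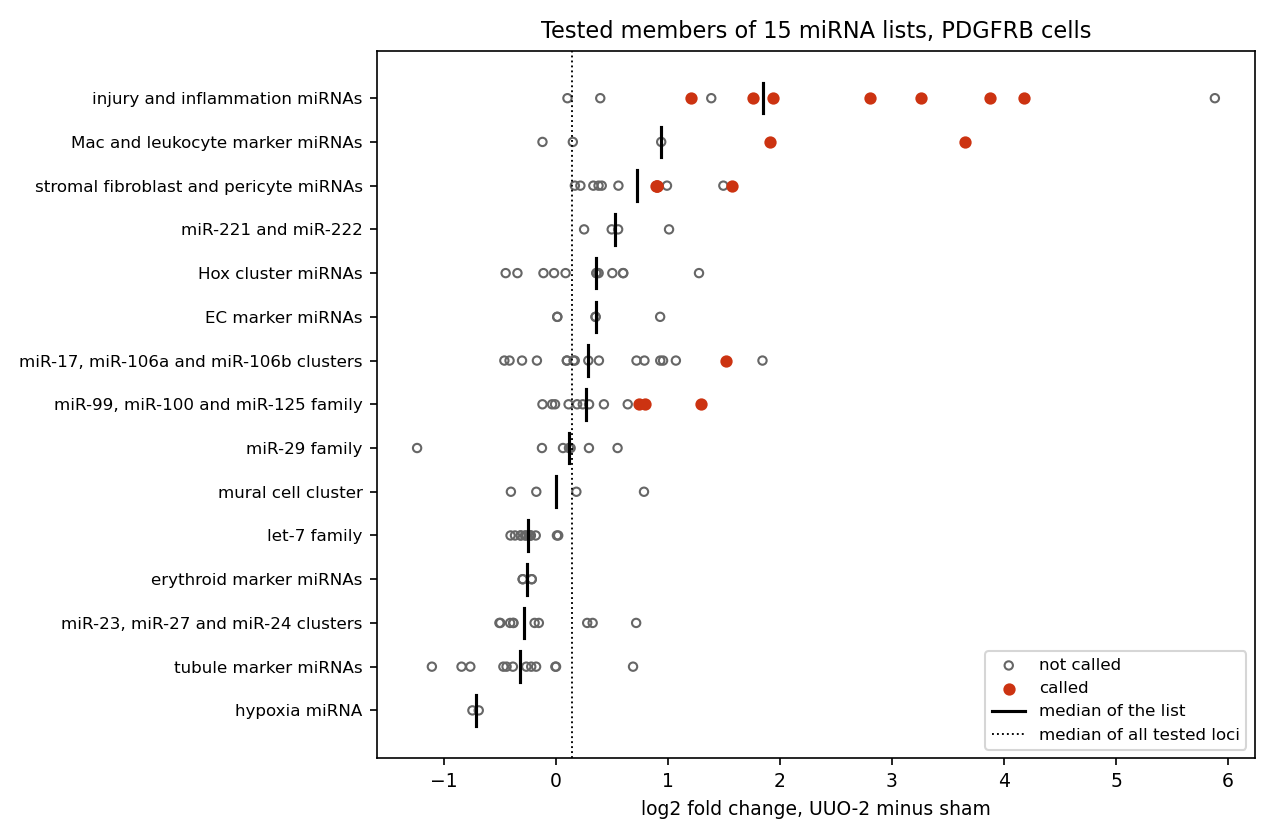
Log2 fold change at UUO-2 of every tested locus in 15 miRNA lists, ordered by the median of the list (black bar), with called loci in red and the median of all 477 tested loci as a dotted line. The open point farthest to the right is miR-155-3p, which had no sham read, and called loci occur in the lists of injury and inflammation, Mac and leukocyte markers, stromal miRNAs, the miR-17 clusters and the miR-125 family.

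Whether the arms of one hairpin changed by different amounts was tested as the share of an arm in 8 hairpins with reads on both arms. Each of them held an arm called on these same libraries, and other called hairpins such as miR-199b were not included. The exact two-sided permutation test of 4 against 4 libraries cannot give a p below 0.0286. After adjustment over 8 hairpins a share could pass only if several hairpins reached that lowest p together. The share of miR-142a-3p in its hairpin was 2.23% ± 1.25 in sham and 6.36% ± 2.66 at UUO-2 (SD, n = 4, exact permutation p = 0.0286, adjusted over 8 hairpins 0.114). The share of miR-125b-1-3p against the chromosome 9 guide was 9.35% ± 0.867 and 12.8% ± 0.907 (SD, n = 4, exact permutation p = 0.0286, adjusted 0.114). For miR-21a-3p it was 0.628% ± 0.368 and 1.44% ± 0.409 (SD, n = 4, exact permutation p = 0.0571, adjusted 0.114). No share passed after adjustment, and with that lowest p the test could hardly have found one, so nothing is read from it. Of 26 loci within 10 kb of a called locus that did not pass, 22 had a positive log2 change, and of 14 loci with the seed of a called locus that did not pass, 11 did, against 293 of all 477 tested loci. Nothing particular to these relatives is read from the counts.

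Whether these changes differed from those of the other sorted cells of the same mice was tested as a difference of differences over all 63 libraries. Against ECs the change differed at 10 of 671 loci (1.49%), 4 of them among the 30 called, all with the larger rise in PDGFRB cells (1.19% of all loci were more positive and 0.298% more negative there). Against Macs it differed at 60 loci (8.94%), 13 of them called, of which 11 rose more (6.26%) and 2 less (2.68%). The 11 count miR-142a-3p and miR-142b, and both miR-125b-5p loci, which are no separate measurements. Against PT cells it differed at 78 loci (11.6%), 10 of them called, all with the larger rise in PDGFRB cells (3.73%, against 7.9% of all loci more negative). Under RLE factors the split against PT cells turned, with 58 of 90 loci more positive. The called loci were chosen on the same sham and UUO-2 PDGFRB libraries that enter these differences. That choice favours a larger rise in PDGFRB cells, so nothing is read from setting the called loci against the shares over all loci. Among the called loci whose difference passed, the largest differences were those of miR-146b-5p, miR-155-5p and miR-582-3p against ECs, and miR-155-5p, miR-582-3p and miR-142a-3p (with miR-142b) against Macs. Against PT cells they were those of miR-146b-5p, miR-21a-3p and miR-155-5p. At the 3 lower loci no difference passed, and for miR-203-3p it was -1.42 against ECs (adjusted p = 0.0962). The fit used groups of cell type and condition only, so that its SEs and adjusted p-values ignore that cell types share a mouse. Replicate numbers join the cell types of a mouse. With the mouse as a block the counts were 16 against ECs, 65 against Macs and 87 against PT cells. Leaving out 1 mouse gave 3 to 18 loci against ECs, the fewest without UUO-2 replicate 4 and the most without sham replicate 1.

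The rise of miR-146b-5p was larger in PDGFRB cells than in each of the other cell types. Its mean went from 181 ± 33.6 to 1227 ± 284 CPM in PDGFRB cells, from 84.3 ± 9.91 to 101 ± 29.8 CPM in ECs, from 2014 ± 341 to 2189 ± 178 CPM in Macs and from 138 ± 21.2 to 134 ± 13.2 CPM in PT cells (SD, n = 4, scaled over all 63 libraries). Macs held the highest level in both conditions. The log2 change in PDGFRB cells exceeded that in ECs by 2.50 ± 0.27 (SE, adjusted p = 4.19e-10), that in Macs by 2.64 ± 0.27 (SE, adjusted p = 5.37e-11) and that in PT cells by 2.80 ± 0.27 (SE, adjusted p = 1.33e-11).

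For miR-155-5p the sham level was lowest in PDGFRB cells, at 2.94 CPM, against 16.5 CPM in ECs, 82.3 CPM in Macs and 13.5 CPM in PT cells. At UUO-2 it was 40.3 CPM in PDGFRB cells, 41.6 CPM in ECs, 35.9 CPM in PT cells and 76.4 CPM in Macs. The PDGFRB libraries, at 19.4 to 65.9 CPM, then overlapped those of each other cell type. By the quasi-likelihood test miR-155-5p also rose in ECs (1.32, adjusted p = 0.0431) and in PT cells (1.42, adjusted p = 0.00929). In Macs it did not change (-0.10, adjusted p = 0.917). The rise in PDGFRB cells was larger by 2.50 ± 0.54 than in ECs (SE, adjusted p = 0.00839, or 0.0711 in a fit of the sham and UUO-2 libraries alone), by 3.92 ± 0.54 than in Macs (SE, adjusted p = 3.26e-07) and by 2.40 ± 0.58 than in PT cells (SE, adjusted p = 0.00287).

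In all 4 cell types, Macs among them, miR-21a-5p rose. The log2 change on the 63-library scale was 3.20 in PDGFRB cells, 2.02 in ECs (adjusted p = 1.57e-07), 0.87 in Macs (adjusted p = 0.0122) and 1.72 in PT cells (adjusted p = 1.77e-06). The rise in PDGFRB cells was larger than in Macs by 2.33 ± 0.37 (SE, adjusted p = 2.85e-06) and than in PT cells by 1.48 ± 0.37 (SE, adjusted p = 0.00375), the latter lost without the mouse UUO-2 replicate 4 (adjusted p = 0.0522). Against ECs the difference of 1.18 ± 0.36 (SE, adjusted p = 0.0775) did not pass. In level Macs stood highest at UUO-2, at 59987 CPM, PT cells at 20549 CPM, PDGFRB cells at 16175 CPM with a range of 9237 to 22193 CPM, and ECs lowest at 6070 CPM.

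In the other direction, 2 miRNAs rose less in PDGFRB cells than in Macs. The log2 change of miR-132-3p was 1.18 in PDGFRB cells and 2.85 in Macs, a difference of -1.67 ± 0.36 (SE, adjusted p = 0.000793), although its level stayed higher in PDGFRB cells (290 against 35.9 CPM at UUO-2). That of miR-298-5p was 1.94 and 4.09, a difference of -2.15 ± 0.68 (SE, adjusted p = 0.0336) that was lost without sham replicates 1 or 4 or UUO-2 replicates 1, 2 or 3 (up to 0.326). The 63-library change of miR-582-3p was 1.88 in PDGFRB cells, 0.24 in ECs, -1.26 in Macs and -0.23 in PT cells. The difference was 3.15 ± 0.44 against Macs (SE, adjusted p = 3.26e-07) and 2.12 ± 0.44 against PT cells (SE, adjusted p = 0.000445). Against ECs it was 1.65 ± 0.44 (SE, adjusted p = 0.0387) and was lost with the mouse as a block (adjusted p = 0.0545) and without sham replicates 2 or 4 or UUO-2 replicates 2 or 4 (0.105 to 0.135). It was also lost by library size only (0.143), with no filter (0.0738) and in a fit of the sham and UUO-2 libraries alone (0.132). Both miR-125b-5p loci, at -1.18 and -1.19, fell in Macs (adjusted p = 7.03e-07 and 1.36e-06).

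**Figure D4:**
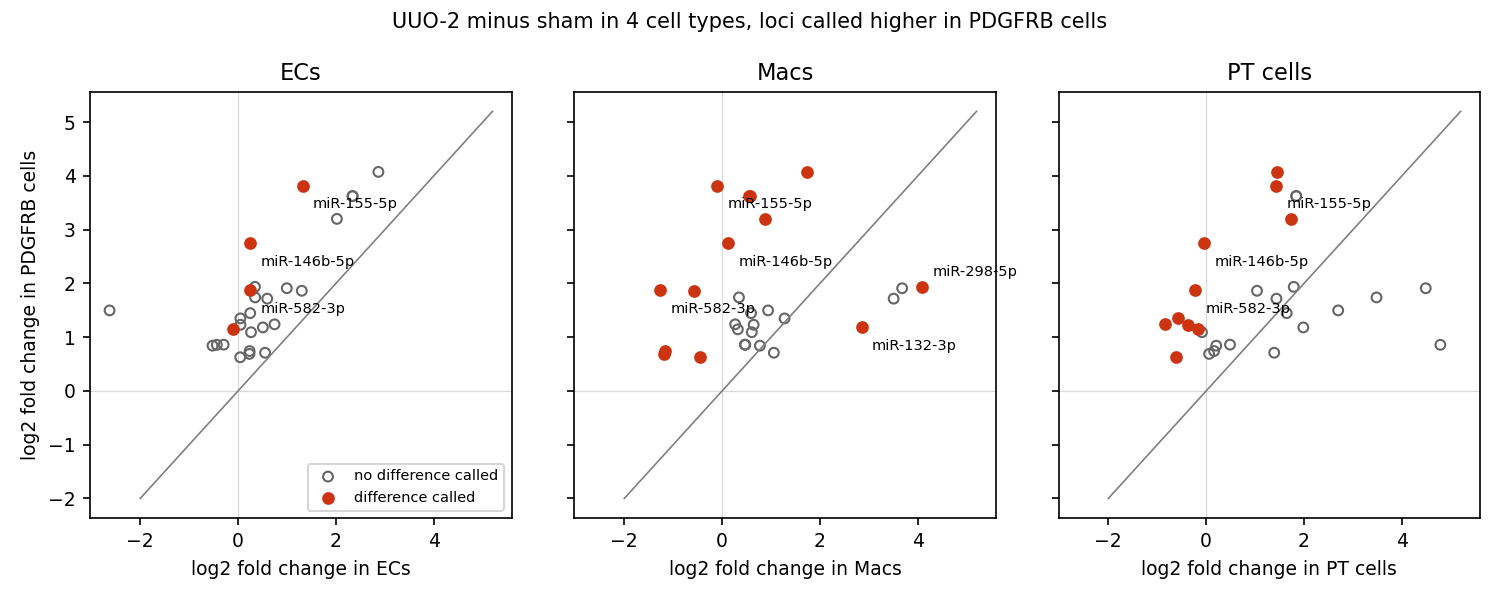
Log2 fold change at UUO-2 in PDGFRB cells (vertical) against that in ECs, Macs or PT cells (horizontal) for the 27 loci called higher in PDGFRB cells, with filled points where the difference of the changes passed the test and the diagonal marking equal change. Points above the diagonal rose more in PDGFRB cells, and miR-132-3p and miR-298-5p lie below it against Macs. The loci were chosen for their rise in PDGFRB cells, which favours points above the diagonal.

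Levels of the called loci were followed in the later PDGFRB libraries, 3 after 7 days of obstruction (UUO-7) and 4 after reversal of obstruction (R-UUO), as a description. Of the 27 higher loci, 21 had all UUO-7 libraries above all UUO-2 libraries, and none had them below (32.9% and 17.2% of all tested loci). In R-UUO 26 of the 27 lay above all sham libraries (23.9% of all tested loci), the exception being miR-142a-5p. The loci were called on these same sham and UUO-2 libraries, so that the shares over all tested loci are not what loci chosen in this way would show without a further change, and nothing is read from the comparison. The median ratio of the UUO-7 mean to the UUO-2 mean was 2.80, and miR-19a-3p (0.964) was the only one below 1. The mean of miR-21a-5p went from 1366 CPM in sham over 13106 CPM at UUO-2 to 42842 CPM at UUO-7 and 36198 CPM in R-UUO. That of miR-146b-5p was 142.4, 993, 5111 and 4618 CPM, and that of miR-199a-5p on chromosome 1 was 427, 800, 2239 and 2816 CPM. The mean of miR-142a-5p, at 56.1, 211, 262 and 107 CPM, was lower in R-UUO than at UUO-2. Of the lower miRNAs, miR-874-3p stayed at 7.23 CPM at UUO-7 and 7.08 CPM in R-UUO, where all libraries were below the sham libraries, and miR-203-3p overlapped sham in both.

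**Figure D5:**
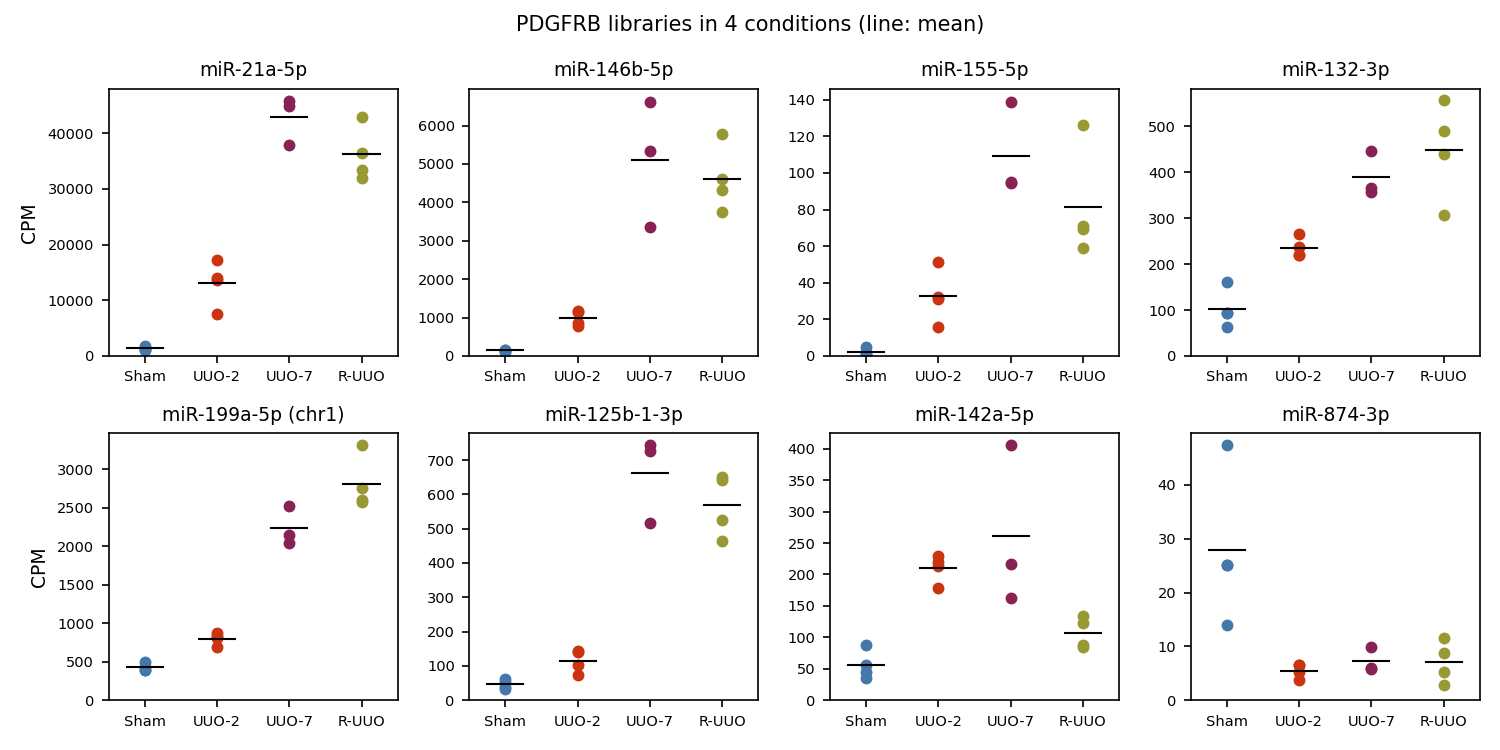
Level in CPM of 8 called miRNAs in each PDGFRB library by condition, with a line at each group mean. For 6 of them every UUO-7 library is above every UUO-2 library, while miR-142a-5p overlaps between these groups and miR-874-3p stays low after sham.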

How the data were processed

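Small RNA libraries of sorted kidney cells were compared. The submitters' processing notes name Trim Galore 0.4.1 and cutadapt 1.1 for trimming. Per the paper's methods, alignment used ShortStack, a Bowtie wrapper, with miRBase loci on GRCm38. The authors deposited raw counts per mature miRNA locus, without normalization. How multi-mapping reads were placed and whether strand was used is not given in the sources used here. A column of the table that exceeds the sum of the 63 libraries was not used.

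The analysis ran in R 4.3.3 and edgeR 4.0.16. Loci were filtered with filterByExpr over the 15 PDGFRB libraries (477 of 2110 loci kept), scaled by TMM and tested with the quasi-likelihood test in a fit over all 4 conditions of the cell type. Calls required a Benjamini-Hochberg adjusted p of 0.05 and a fold change of 1.5. Differences between cell types used all 63 libraries and the adjusted p alone. DESeq2 1.42.0 was an alternative. The tests were tested on simulated data. Host genes come from GENCODE on GRCm38.

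The labels give separate samples, and the paper's methods separate mice. Sham and UUO-2 libraries of the same number are different mice, with correlations of their deviations of -0.119 to 0.0196. Cell types of 1 mouse share its number by design, with correlations of -0.108 to 0.200.

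The loci named are all called loci, the 10 most abundant, at most 4 loci not called per list, the largest differences between cell types, and loci related to a called one by hairpin, position or seed. The miRNAs and lists were chosen with earlier results of these data known.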

Additional observations from a re-analysis of the deposited data

Results flagged for a closer look

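Some values within a group of 4 libraries stood farther from the rest than Dixon's test allows at 95%. This was seen in 4 of 80 groups examined, and chance alone gives about 1 in 20. The UUO-2 replicate 4 library was high for miR-298-5p, at 73.8 CPM with the next at 34.1. The UUO-2 replicate 3 library was high for let-7f-5p on chromosome X, at 68848 CPM with the next at 61329. The sham replicate 1 library was high for miR-30a-5p, at 26868 CPM with the next at 23902. The UUO-2 replicate 2 library was high for miR-181a-5p on chromosome 2, at 18687 CPM with the next at 13791.

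The difference of the UUO-2 log2 change in PDGFRB cells from that in another cell type passed the test at 27 pairs of a called locus and a cell type. Against ECs it was 1.65 for miR-582-3p, 2.50 for miR-155-5p, 2.50 for miR-146b-5p and 1.24 for miR-15b-5p. Against Macs it was 1.07 for miR-181a-1-3p, -1.67 for miR-132-3p, 2.33 for miR-21a-5p, 2.34 for miR-21a-3p, 3.06 for miR-142b and miR-142a-3p alike, 2.45 for miR-142a-5p, 3.15 for miR-582-3p, 3.92 for miR-155-5p, 2.64 for miR-146b-5p and -2.15 for miR-298-5p. For miR-125b-5p it was 1.88 on chromosome 16 and 1.92 on chromosome 9. Against PT cells it was 1.23 for miR-181a-1-3p, 1.92 for miR-7688-5p, 1.48 for miR-21a-5p, 2.62 for miR-21a-3p, 2.08 for miR-1247-5p, 2.12 for miR-582-3p, 2.40 for miR-155-5p, 2.80 for miR-146b-5p, 1.31 for miR-15b-5p and 1.61 for miR-125b-1-3p. Of these 27 differences, 17 passed under all 14 alternatives run. Both numbers count miR-142a-3p and miR-142b, and both miR-125b-5p loci, although these are no separate measurements. With the mouse as a block the differences of miR-7688-5p against PT cells (adjusted p = 0.0560) and miR-582-3p against ECs (adjusted p = 0.0545) were lost. The called loci were chosen on PDGFRB libraries that also enter these differences, which favours a larger rise there.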

How the results depend on the processing

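Of the 30 calls, 17 held under every alternative run, and none changed sign. With no filter on low counts the number called was 49. Leaving out 1 library gave 19 to 42 calls. The replicate number as a block gave 31 calls, 26 of them among the 30, and these numbers do not pair mice. DESeq2 gave 44 calls (31 higher, 13 lower), the likelihood ratio test 43, RLE factors 30, library size only 23, only the sham and UUO-2 libraries 28 (19 higher, 9 lower), summed loci 27 and identical loci counted once 29. Without a fold threshold there were 30. The cause of these shifts was not tested.

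Against ECs the number of loci that differed was 10, and 21 with no filter, 2 with only the sham and UUO-2 libraries, 16 with the mouse as a replicate block and 17 with DESeq2. Leaving out 1 mouse gave 3 to 18. Against Macs leaving out 1 mouse gave 38 to 54, and against PT cells 51 to 76. The scaling moved the direction of these differences. Against PT cells 25 of 78 were more positive in PDGFRB cells, 58 of 90 under RLE factors (median difference of all loci -0.00 and 0.28), and against Macs 42 of 60 and 20 of 46 by library size only (median 0.20 and -0.11).

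Small changes that were not called turned sign. For miR-126a-5p they were -0.093 under DESeq2 and RLE factors, -0.023 by library size only, -0.074 with no filter, -0.085 with only the sham and UUO-2 libraries, -0.033 with the replicate block and -0.021 with summed loci. For miR-29a-3p they were -0.042 under DESeq2 and RLE factors, -0.036 with only the sham and UUO-2 libraries and -0.025 with no filter. For miR-92a-3p on chromosome 14 they were -0.00052 under DESeq2 and -0.00055 under RLE factors. With 1 library left out the ranges were -0.27 to 0.17 for miR-126a-5p, -0.068 to 0.51 for miR-126a-3p, -0.48 to 0.56 for miR-511-5p, -0.36 to 0.032 for miR-511-3p, -0.075 to 0.024 for miR-26a-5p on chromosome 10, -0.078 to 0.022 on chromosome 9, -0.55 to 0.39 for miR-486a-3p, -0.42 to 0.43 for miR-486a-5p, -0.14 to 0.058 for miR-99b-5p and -0.21 to 0.51 for miR-31-5p. Depth limits the loci under about 1.11 CPM, the value of 3 counts in the shallowest library.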
